A study of Homo sapiens with 30 samples.

Results

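Gene expression in HH, a cutaneous T-cell lymphoma line, was compared with that in KARPAS-299 (anaplastic large cell lymphoma), SUP-T1 (T-lymphoblastic lymphoma), JURKAT (acute T-cell leukaemia) and HD-MAR-2 (a T-cell leukaemia line), all as untreated cultures. The comparison holds 15 of the 30 arrays of the series, 3 of HH and 12 of the other 4 lines, with 3 replicates per line. The array titles do not say whether replicates are separate cultures. The other 15 arrays hold the same lines after 24 h of CHOEP, a mixture of cyclophosphamide, doxorubicin, vincristine, prednisone and etoposide, each line at its own dose. All lines grew in the same medium, and the labels name no genetic modification. The study set treated against untreated cells, whereas the difference considered here is the baseline identity of HH. Each line stands for 1 tumour and the 5 lines were run on 5 separate chips, so that line and chip cannot be told apart. The p-values measure the spread among replicate arrays of a line and not among tumours.

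Cutaneous T-cell lymphomas arise from mature, skin-homing T helper cells, which carry the T-cell receptor with its CD3 chains, the co-receptor CD4 and the chemokine receptor CCR4. The lymphoblastic and leukaemic lines derive from T cells halted during development in the thymus, where CD1 proteins, terminal transferase and the pre-T-cell receptor are made. Anaplastic large cell lymphoma is a mature T-cell lymphoma that often loses T-cell receptor components and is defined by CD30 on its surface.

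Levels are given as normalised log2 signal of an Illumina bead array probe, which can be compared between arrays for 1 probe but not between probes. A probe counted as detected on an array at a detection p under 0.01. Of 47323 probes with values, 16003 to 16767 were detected on HH arrays, within the range of all 15 arrays (16003 to 17923). Arrays of a line had a correlation of at least 0.9884, and arrays of different lines at most 0.9092. Of 27 measured genes of the T-cell receptor list, 19 were detected on all 3 HH arrays. Genes that mark other cells were at low summed levels in HH. Of 7 B-cell markers, 4 were detected on no HH array, and their summed signal was 846 to 1217 in HH against 650 to 3823 in the other lines. Of 12 myeloid markers, 8 were detected on no HH array (2194 to 3034 in HH against 1369 to 7896 in the other lines). Of 7 NK-cell markers, 6 were detected on no HH array (212 to 274 against 186 to 1331), as were 9 of 10 erythroid and platelet markers (221 to 274 against 183 to 250), 10 of 11 epithelial markers (2878 to 3099 against 2279 to 5359) and 10 of 11 fibroblast and endothelial markers (216 to 246 against 306 to 5932). No marker of these lists was called against each line, and their part in the results was not tested.

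One feature of the other lines touched many results. Among the probes at a mean of at least 11 in HH and at most 6 in JURKAT, KARPAS-299 and SUP-T1, 35 in number, 32 were detected on all 3 HD-MAR-2 arrays. Their median level there was 5.69% of the HH signal, between 5.63% and 5.87% on the 3 arrays. On the arrays of the remaining lines it was 0.432% to 0.536%, a low level that the choice of probes had set. With JURKAT, KARPAS-299 or SUP-T1 left free in place of HD-MAR-2, the same limits gave 2, 2 and 1 probes, against 35. The HD-MAR-2 share differed between probes, with YAP1 lowest at 0.333% and CD44 highest at 23.1%. On the CHOEP-treated HD-MAR-2 arrays it was 2.78% to 3.25%. Its source was not tested, and counts are therefore also given without HD-MAR-2.

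**Figure D1:**
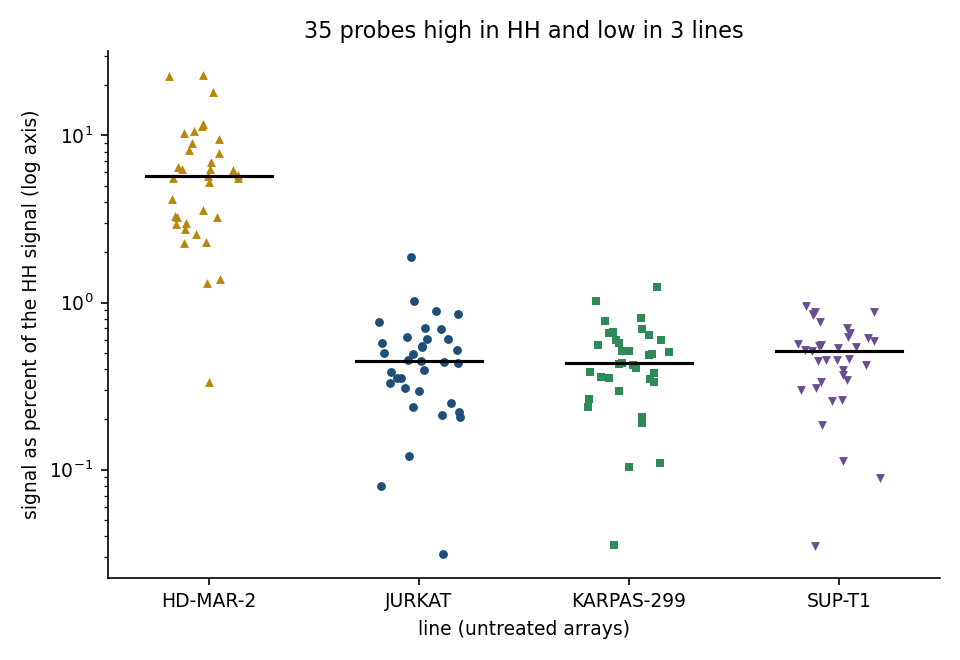
Signal of 35 probes high in HH (mean log2 signal of at least 11) and low in JURKAT, KARPAS-299 and SUP-T1 (at most 6), in each other line as a percentage of the HH signal (log axis), with 1 point per probe and a black bar at the median. The HD-MAR-2 median is 5.69%, and the background level of the other 3 lines is set by the choice of probes.

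A gene was called higher (or lower) in HH when it differed at least 2-fold with an adjusted p under 0.05 (limma, Benjamini-Hochberg) from each of the 4 other lines in the same direction, and was detected on all arrays of the higher side. Of 11955 genes tested, 576 (4.82%) were higher and 378 (3.16%) lower in HH than in each line. Against the mean of the 4 lines, 1548 (12.9%) were higher and 2009 (16.8%) lower. When the 4 line means themselves served as replicates, no gene passed against that mean at an adjusted p under 0.05, and 544 higher and 425 lower genes had an unadjusted p under 0.05 (limma, 3 residual degrees of freedom). Higher genes made up 60.4% of the calls against each line, but 43.9% when arrays were scaled to their medians, and 43.5% against 30.3% for calls against the mean. By the same rule KARPAS-299 had 733 higher and 303 lower genes, JURKAT 381 and 146, SUP-T1 377 and 223, and HD-MAR-2 338 and 134. Without HD-MAR-2, 676 genes were higher in HH than in each of the remaining lines, 574 of the 576 among them, and 500 lower.

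Among the 576 higher genes, 131 were detected on no array of another line and so passed the detection filter through HH alone, and list counts of higher genes include such genes. The nearest line, meaning the one with the smallest difference, was KARPAS-299 for 325, HD-MAR-2 for 113, JURKAT for 94 and SUP-T1 for 44. The difference to it was at least 4-fold for 187 and at least 16-fold for 22. Of the 378 lower genes, 150 were detected on no HH array and 83 were at least 4-fold lower than in the nearest line. Where no array of a line detected a probe, the level there was set to the lowest detected signal of each array, or to the probe's own signal if that was brighter, and the fold is given as "at least". Calls used the fitted values in such lines too, so that some bounds are under 2-fold.

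The genes with the largest differences upwards included secreted, membrane and signalling proteins. APOD, a secreted lipid-binding lipocalin, was at 13.35, 13.38 and 13.22 in HH, against 4.57 to 7.45 (median 4.67) in the other lines. Only the HD-MAR-2 arrays (7.11 to 7.45) stood above background there, and HH was 65.0-fold higher than HD-MAR-2 (SE 0.11 on the log2 scale). MS4A6E, of the membrane-spanning MS4A family, was at 12.49, 12.37 and 12.22 in HH against 4.69 to 6.56 (median 5.04), a 61.9-fold difference to HD-MAR-2. YAP1, the transcriptional co-activator of the Hippo pathway, was at 11.74, 11.81 and 11.78 in HH against 4.65 to 5.83 (median 4.85). It was detected on no other array, HD-MAR-2 included, and HH was at least 41.5-fold higher.

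NOL4, a nucleolar protein gene, was at 12.84, 12.76 and 12.56 in HH against 4.84 to 7.48 (median 5.62) in the other lines, 39.3-fold above HD-MAR-2. LRRC26, an auxiliary subunit of BK potassium channels, was at 12.18, 12.18 and 12.11 in HH against 4.90 to 7.29 (34.3-fold). ALPK2, an alpha-kinase, was at 12.52, 12.54 and 12.43 in HH against 4.66 to 7.77 (28.4-fold). In all 3 genes the highest arrays outside HH were those of HD-MAR-2, with no overlap with HH.

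VCAM1, the adhesion molecule that binds the integrin VLA-4, was at 12.19, 12.21 and 12.11 in HH against 4.59 to 7.50 (median 4.64) in the other lines, a 27.6-fold difference to HD-MAR-2. LAG3, a checkpoint receptor that binds MHC class II, was at 11.42, 11.55 and 11.59 in HH against 4.66 to 7.48 (21.5-fold). VSTM2L differed 25.6-fold, the adhesion receptor ADGRB3 23.3-fold, the chloride channel family gene CLIC2 at least 24.8-fold and TMEM200A at least 20.5-fold. All 15 leading higher genes had an adjusted p of at most 3.07e-12 against each line (limma), and outside HH the brightest array was one of HD-MAR-2 in each of them except YAP1.

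Among them were 2 alpha-tubulin genes of the TUBA3 group, which is known for its testis expression. TUBA3C was at 11.16, 11.06 and 11.01 in HH against 5.01 to 6.79 in the other lines (25.2-fold), and TUBA3E at 12.69, 12.83 and 12.69 against 5.997 to 8.45 (21.3-fold). TUBA3D, added after its values were seen, was 2.49-fold higher than in JURKAT, the nearest line. A further copy tested, TUBA3FP, averaged 15.30 in HH and 15.22 to 15.57 in the other lines and was not called. The copies are near-identical, and their probes may share transcripts.

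**Figure D2:**
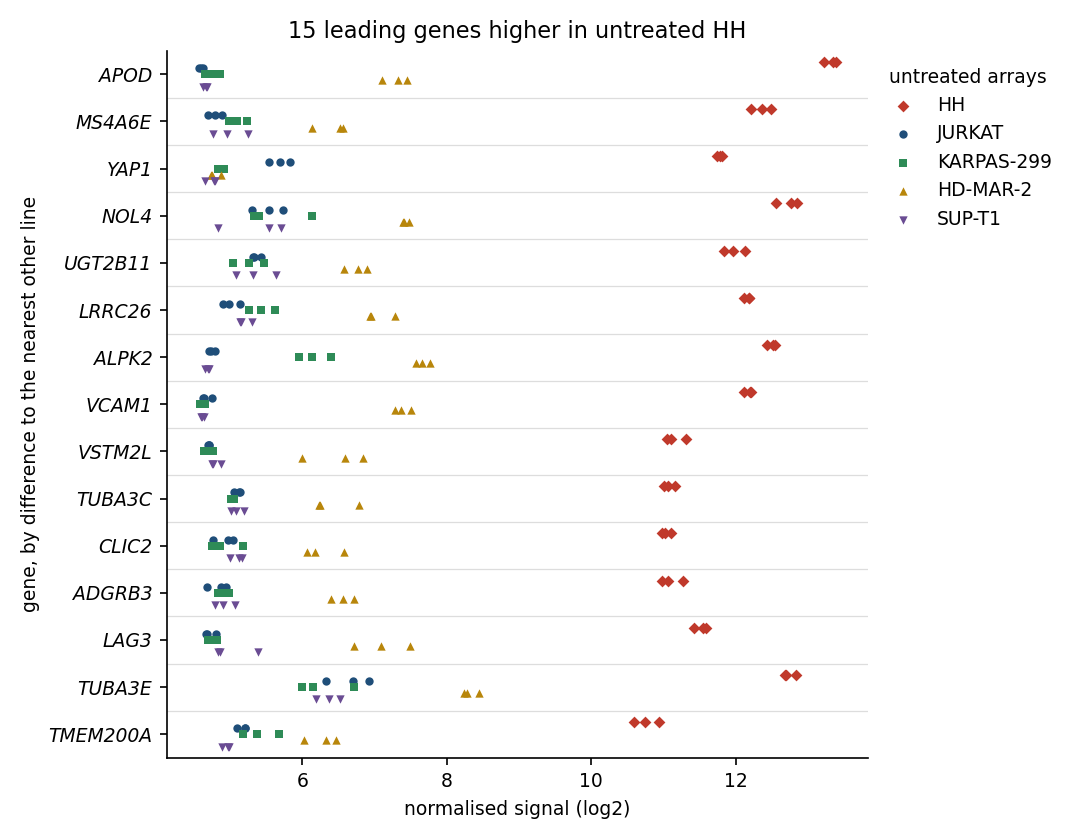
Normalised log2 signal of the 15 genes with the largest difference between HH and the nearest other line among those higher in HH, 1 point per array, HH and then the other 4 lines. HH arrays lie at or above 10.59 in each gene, and the highest arrays of another line are those of HD-MAR-2 in all but YAP1.

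Downwards, several transcripts that all arrays of the other 4 lines detected were at or near background in HH. GSTO1, an omega-class glutathione transferase, was at 6.73, 6.93 and 6.26 in HH, against 12.49 to 13.77 (median 13.29) in the other lines. All 12 other arrays lay far above HH, and the difference to SUP-T1 was 60.4-fold (SE 0.16 on the log2 scale). HACD3, a dehydratase of very long chain fatty acid synthesis, was at 7.26, 7.05 and 7.17 in HH against 12.49 to 13.16 (45.6-fold lower than in KARPAS-299). ZNF22, a zinc finger protein gene, was at 6.31, 5.63 and 5.98 in HH against 11.56 to 13.03. It was detected on no HH array and was at least 44.6-fold lower.

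TEX19, a germ-cell and placenta gene, was detected on no HH array and was at 10.89 to 12.45 in the other lines (at least 27.6-fold lower in HH). The same held for CPNE3, a calcium-dependent phospholipid-binding copine (at least 19.8-fold), and MGAT5, the Golgi enzyme that branches N-glycans (at least 19.0-fold). GNA15, a G-protein alpha subunit of haematopoietic cells (at least 17.4-fold), NREP (at least 17.1-fold) and TCF12, the E-protein HEB of T-cell development (at least 14.7-fold), were likewise undetected in HH. TCF12 was at 4.78, 4.78 and 4.66 in HH, against 10.01 to 12.55 in the other lines.

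Other genes were present in HH at a reduced level. CCND3, the D-type cyclin that early T cells depend on, was at 10.08, 9.95 and 10.15 in HH, against 13.99 to 15.15 (median 14.59) elsewhere, 15.6-fold lower than in KARPAS-299 (SE 0.11). MARCKSL1, a substrate of protein kinase C (17.99-fold), ANKRD11, a chromatin regulator (14.9-fold), and NBDY, a microprotein of the mRNA decapping complex (12.4-fold), were lower too. RBMS1 (at least 14.9-fold) and PFKFB3, a regulator of glycolysis (at least 12.6-fold), were undetected in HH by the probe used, but 1 of 4 probes of RBMS1 and 1 of 2 of PFKFB3 did not meet the rule, the PFKFB3 probe with a mean of 7.28 in HH. The 15 leading lower genes had an adjusted p of at most 8.27e-12 against each line (limma).

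**Figure D3:**
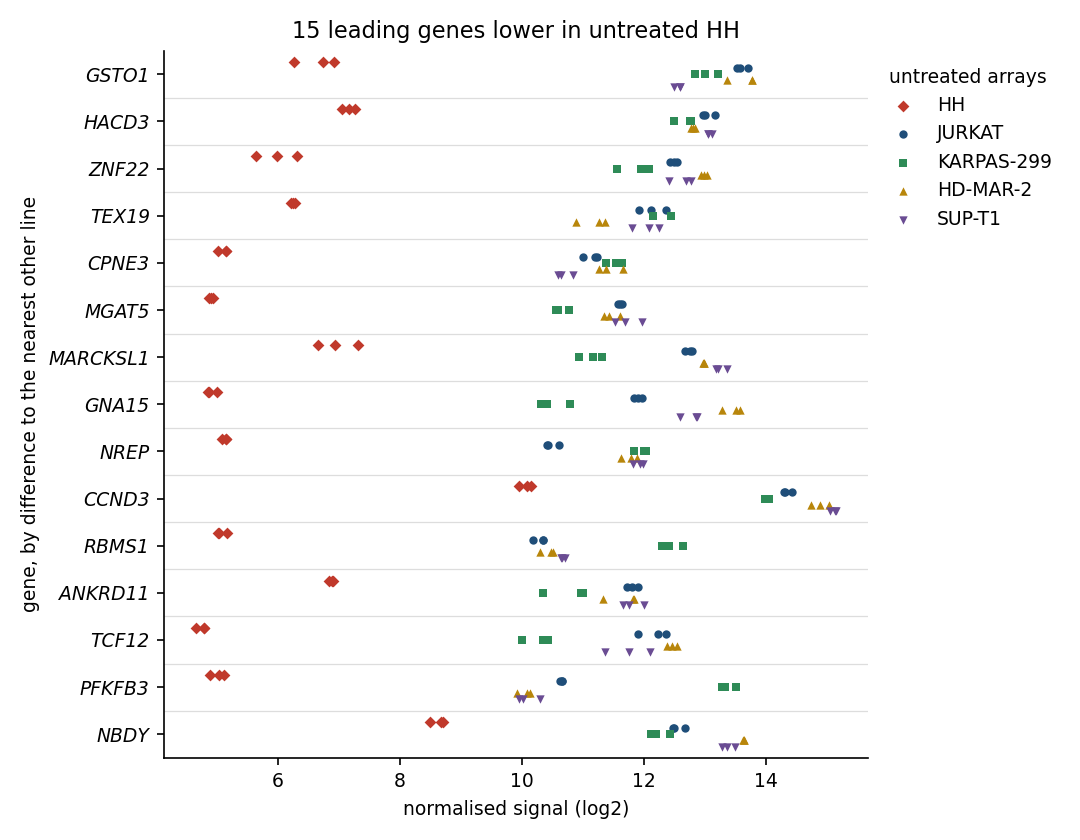
Normalised log2 signal of the 15 genes with the largest difference between HH and the nearest other line among those lower in HH, 1 point per array, HH and then the other 4 lines. HH arrays are at most at 10.15, and in each gene all 12 arrays of the other lines lie above them.

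In the T-cell receptor list, surface receptors were among the higher genes and signalling proteins among the lower ones. Of 26 genes tested, 4 were higher (CD2, CD4, CD5 and PTPRC) and 3 lower (FYN, LCP2 and PRKCQ) than in each line, beside 4.82% and 3.16% of all genes. The median difference to the mean of the other lines was -0.75, against -0.12 over all genes. CD4, the MHC class II co-receptor, was at 11.37, 11.53 and 11.35 in HH against 7.98 to 9.80 (median 8.65) in the other lines, 3.22-fold above KARPAS-299 (SE 0.14). CD5, a scavenger receptor that dampens receptor signals, was at 12.11, 12.04 and 12.11 in HH against 8.30 to 10.09 (4.20-fold). CD2, an adhesion receptor, was at 13.16, 13.25 and 13.23 in HH against 5.24 to 11.47 (3.42-fold). PTPRC (CD45) was 2.02-fold higher than in SUP-T1 at an adjusted p of 0.0422 (limma), a call lost when arrays were scaled to their medians and under several other settings.

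LCK, the Src-family kinase that starts receptor signalling, was detected on no HH array (5.39, 5.29 and 4.91), by any of 4 probes. KARPAS-299 also lacked it (5.01 to 5.75), while JURKAT, HD-MAR-2 and SUP-T1 were at 10.84 to 11.66, so that LCK was lower than the mean of the lines but not than each. FYN, a related kinase, was at 6.77, 7.15 and 6.35 in HH against 8.63 to 11.87 in the other lines (3.99-fold lower than in KARPAS-299). PRKCQ, protein kinase C theta, was undetected in HH (at least 4.34-fold lower), as was the adaptor LCP2 (SLP-76, at least 1.96-fold). CSK, which restrains Src-family kinases, was at 10.32, 10.38 and 10.40 in HH against 12.14 to 12.73 (3.55-fold lower). BLK, a Src-family kinase known from B cells, was at 12.44, 12.28 and 12.34 in HH against 4.66 to 10.51 (3.94-fold higher than in KARPAS-299), PRKCE was 5.80-fold and the CSK anchor PAG1 2.74-fold higher. Of 22 genes of the protein kinase C and Src list, 3 were thus higher and 3 lower than in each line (13.6% each, beside 4.82% and 3.16% of all genes). Against the mean of the lines, 6 were higher (27.3%, beside 12.9%) and 11 lower (50%, beside 16.8%), with a median of -1.07.

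The CD3 chains did not mark HH out. CD3D was at 13.52, 13.54 and 13.46 in HH, below JURKAT, HD-MAR-2 and SUP-T1 (14.60 to 15.31) and above KARPAS-299 (12.61 to 12.87). CD3E (10.09 to 10.60) and CD3G (11.11 to 11.38) were detected in HH and on no KARPAS-299 array. CD247 was at 13.21 to 13.37 in HH, within the range of 11.88 to 14.07 elsewhere. ZAP70, the kinase recruited by phosphorylated CD3, was at 9.59 to 9.82 in HH and 9.36 to 11.86 elsewhere. CD7, which Sezary cells often lose, was at 5.69, 5.43 and 6.66 in HH and at 5.21 to 6.02 in KARPAS-299, both near background, against 10.85 to 11.89 in the other 3 lines. CD8A was undetected in HH (4.94 to 5.20), as in JURKAT and KARPAS-299. GATA3 and TBX21, the T helper 2 and T helper 1 regulators, were detected on all HH arrays (7.67 to 7.91 and 7.68 to 7.98) and were not called.

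Genes of the thymic stage were low. Of 14 tested, 11 were lower in HH than the mean of the lines (78.6%, beside 16.8% of all genes) and none was higher, with a median difference of -3.40. CD1A and CD1D, which present lipid antigens, were lower than in each line. CD1D was at 4.75, 4.69 and 4.65 in HH against 9.24 to 12.82 in the other lines (at least 8.34-fold), and CD1A at 5.13, 5.00 and 5.14 against 8.05 to 14.06 (at least 3.53-fold). DNTT, terminal transferase, RAG1 of the receptor recombinase and PTCRA, the pre-T-cell receptor alpha chain, which are named here after their values were seen, were undetected in HH (mean levels 4.72, 5.45 and 5.04) and in KARPAS-299 (4.73, 5.52 and 5.12).

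Of 17 listed genes known as raised in Sezary or mycosis fungoides cells, only 11 were tested. Of these 11, 4 were higher than in each line (36.4%, beside 4.82% of all genes) and none was lower. The listed genes that were not tested do not enter that share. CCR4, the skin-homing chemokine receptor, was at 11.46, 11.49 and 11.64 in HH against 4.67 to 7.70 (median 4.98) in the other lines, 14.8-fold above HD-MAR-2, where it was at 7.53 to 7.70. SGCE, epsilon-sarcoglycan, was at 11.98, 11.83 and 11.86 in HH against 4.95 to 8.85 (9.03-fold). DNM3, a dynamin, was 2.79-fold and NEDD4L, a ubiquitin ligase, 2.70-fold higher. PLS3 and TWIST1, both widely used Sezary markers, were detected on no HH array (mean levels 5.11 and 5.08) and were highest in JURKAT (8.13 and 6.83). TOX, JUNB, TIGIT and GATA3 were not called, and ITGB1 was higher only against the mean.

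Of 10 genes known as reduced in these cells, TGFBR2, the type II receptor of TGF-beta, was lower than in each line. It was at 4.79, 4.81 and 4.65 in HH against 6.53 to 11.72 in the other lines (at least 1.31-fold lower than in SUP-T1, the nearest). TNFAIP3, an inhibitor of NF-kB, ran the other way at 12.29, 12.20 and 12.16 in HH against 7.86 to 10.59 (3.21-fold higher than in KARPAS-299). CD7, SATB1, DPP4 and BCL11A were lower than the mean of the lines, and STAT4, ZEB1, FAS and SOCS1 were not called. The median over the 10 genes was -1.18.

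Of 24 receptors of co-stimulation and inhibition, 9 were higher (37.5%, beside 4.82% of all genes) and 1 lower (4.17%, beside 3.16%) than in each line. Against the mean of the lines, 10 were higher (41.7%, beside 12.9%) and 8 lower (33.3%, beside 16.8%). The 9 include TNFRSF8, which passed the detection filter through HH arrays alone, so that its call adds nothing to the count. Besides LAG3 the higher genes were led by CD160, a receptor for TNFRSF14. It was at 9.92, 10.02 and 10.13 in HH against 4.62 to 8.11 in the other lines (4.38-fold). CD80, the ligand of CD28, was at 8.39, 8.42 and 8.41 in HH against 4.94 to 6.47 (at least 4.03-fold), and BTLA was at least 3.55-fold higher. CD70, the ligand of CD27, was at 12.57, 12.52 and 12.49 in HH against 6.33 to 11.19 (3.09-fold above KARPAS-299). TNFRSF1A, the TNF receptor of most cells, was undetected in HH (5.24, 5.07 and 5.35) and at 9.31 to 10.00 in the other lines (at least 7.79-fold lower).

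TNFRSF8, which encodes CD30, was at 7.21, 7.71 and 7.49 in HH and was detected on no other array, those of KARPAS-299 (5.95 to 6.08) included, and HH was at least 2.10-fold higher. KARPAS-299 belongs to a class of lymphoma defined by CD30, so that its single kept probe did not show the marker of that line. The call was lost on the authors' normalised values and without background correction.

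Among cytokines, 4 of 19 were higher (21.1%, beside 4.82% of all genes) and 1 lower (5.26%, beside 3.16%) than in each line, the lower share being that of a single gene. The 4 include CCL22, which passed the detection filter through HH arrays alone, so that its call adds nothing to the count. CCL5, a chemokine of activated T cells, was at 12.47, 12.58 and 12.79 in HH against 6.77 to 10.76 in the other lines (4.14-fold above KARPAS-299). LTA, lymphotoxin alpha, was at 11.05, 11.19 and 11.16 in HH against 6.99 to 8.80 (5.62-fold), whereas LTB, its membrane partner, was at 6.996, 7.04 and 7.13 in HH against 9.93 to 13.16 (7.52-fold lower than in JURKAT). The 2 lymphotoxin genes thus differed in opposite directions. CCL22, a ligand of CCR4, was at 7.73, 7.79 and 7.95 in HH and was detected nowhere else (at least 2.69-fold higher), and CXCL10 was 2.51-fold higher.

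Of 33 cytokine receptors and JAK-STAT genes, 4 were higher (12.1%, beside 4.82% of all genes) and 2 lower (6.06%, beside 3.16%) than in each line. STAT5A, a transcription factor downstream of interleukin-2, was at 11.88, 12.06 and 11.78 in HH against 5.999 to 9.09 in the other lines (8.42-fold). IL6R was 4.22-fold, IL10RA at least 3.36-fold and the kinase gene PIM3 2.30-fold higher, and IFNAR2, an interferon receptor chain, was 2.32-fold lower.

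Of 33 homing receptors and integrins, 6 were higher (18.2%, beside 4.82% of all genes) and 2 lower (6.06%, beside 3.16%) than in each line. ITGB7, the beta chain of the gut-homing integrin, was at 11.65, 12.02 and 11.85 in HH against 4.95 to 8.89 in the other lines (8.55-fold). CD44, the hyaluronan receptor, was at 13.18, 13.16 and 13.25 in HH and at 11.01 to 11.16 in HD-MAR-2 (4.31-fold), and was near background in the remaining lines (4.65 to 4.84). ITGA4, the alpha chain that pairs with ITGB7 and ITGB1, was at 6.51, 6.83 and 7.05 in HH against 9.58 to 11.02 (7.76-fold lower). ITGB2, the beta chain of LFA-1, was at 8.64, 8.46 and 8.49 in HH against 10.91 to 13.69 (5.32-fold lower).

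Of 16 NOTCH genes, 4 were higher and 8 lower than the mean of the lines (25% and 50%, beside 12.9% and 16.8% of all genes), with a median of -1.55. Against each line, 3 were higher and 2 lower (18.8% and 12.5%, beside 4.82% and 3.16%). NOTCH1, the receptor of T-cell commitment, was at 9.20, 9.19 and 9.28 in HH against 10.76 to 14.62 in the other lines (3.20-fold lower than in JURKAT). HEY1, a target, was undetected in HH and lower than in each line (at least 1.15-fold). JAG1, a ligand, was at 9.61, 9.73 and 9.72 in HH against 4.94 to 6.30 (at least 9.79-fold higher), LFNG, which glycosylates the receptor, was 7.94-fold higher, and RBPJ, the DNA-binding partner of NOTCH, was at 12.87, 12.81 and 12.63 in HH against 7.55 to 10.18 (6.82-fold higher).

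Of 33 T-lineage transcription factors, 3 were lower than in each line (9.09%, beside 3.16% of all genes) and none was higher, where 4.82% of all genes were. BCL6, a repressor of follicular helper cells, was undetected in HH (4.66 to 4.76) and at 7.14 to 12.14 elsewhere (at least 1.72-fold lower), EOMES was undetected (at least 1.89-fold lower) and MYB was 2.26-fold lower. Of 8 oncogenic factors of T-cell leukaemia, 2 were higher (25%, beside 4.82%), MEF2C at 9.71, 9.73 and 9.73 in HH against 4.58 to 6.23 (at least 10.0-fold) and LYL1 at 9.93, 9.79 and 10.13 against 5.82 to 7.83 (5.05-fold). Of 13 cytotoxic effector genes none was higher than in each line and 1 was lower (7.69%, beside 3.16%), NKG7, which was undetected in HH (at least 1.53-fold lower). Against the mean of the lines, 7 of the 13 were lower (53.8%, beside 16.8%) and 1 higher (7.69%, beside 12.9%), with a median of -1.08.

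Of 19 MHC class II genes, 14 were higher in HH than the mean of the lines (73.7%, beside 12.9% of all genes), with a median of 2.73, but none was higher than in each line. Of the 14, 13 had a higher mean in KARPAS-299 than in HH, and in 12 HD-MAR-2 lay above JURKAT and SUP-T1. CD74, the invariant chain, averaged 14.75 in HH, against 15.04 in KARPAS-299, 11.63 in HD-MAR-2, 5.20 in JURKAT and 5.58 in SUP-T1, and is named here after its values were seen. Of 18 class I genes, 10 were higher than the mean (55.6%, beside 12.9% of all genes), with a median of 1.28. Only 1 was higher than in each line, a share (5.56%) close to the 4.82% of all genes. This was HLA-C, at 11.50, 11.36 and 11.49 in HH against 6.66 to 9.77 in the other lines (3.64-fold, by 1 of 2 probes). HLA genes are close copies of each other and differ between people, so that their probes may not read all alleles alike.

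Interferon-stimulated genes were lower on balance. Of 37, 18 were lower (48.6%, beside 16.8% of all genes) and 6 higher (16.2%, beside 12.9%) than the mean of the lines, with a median of -0.91. Against each line, 4 were lower (10.8%, beside 3.16%) and 2 higher, a share (5.41%) close to the 4.82% of all genes. IFI6 was 2.83-fold and IFI16, a DNA sensor, 2.79-fold lower than in each line, and IRF7 was 2.06-fold lower by 1 of 2 probes. PARP9 was undetected in HH (at least 1.17-fold lower). IFIH1, the RNA sensor MDA5, was at 11.46, 11.37 and 11.32 in HH against 4.80 to 8.97 in the other lines (5.54-fold higher), and EPSTI1 was 2.04-fold higher.

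D-type cyclins differed in opposite directions. CCND2 was at 13.85, 13.96 and 13.79 in HH against 4.67 to 10.92 (median 6.71) in the other lines, 8.06-fold above HD-MAR-2, while CCND3 was lower. CCNE1 (2.12-fold) and CCNA2 (2.01-fold) were lower too. Of 30 proliferation genes tested, 1 was thus higher (3.33%, beside 4.82% of all genes) and 3 lower (10%, beside 3.16%) than in each line. Of 19 cell cycle inhibitors and p53 pathway genes, 1 was higher and 1 lower (5.26% each, beside the same 4.82% and 3.16%), each share being that of a single gene. CDKN1A, the p21 inhibitor, was at 11.48, 11.39 and 11.66 in HH against 6.56 to 9.85 (3.76-fold higher), and GADD45A at 6.52, 6.67 and 6.68 against 8.599 to 10.40 (4.08-fold lower). Of 33 BCL2-family, caspase and death receptor genes, 1 was called (3.03% lower, close to the 3.16% of all genes), PMAIP1 (NOXA), at 9.15, 9.36 and 9.57 in HH against 10.42 to 12.92 (2.56-fold lower, by 1 of 2 probes).

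Of 34 genes that CHOEP drugs act on or are handled by, 2 were higher (5.88%) and 1 lower (2.94%) than in each line, shares close to those of all genes (4.82% and 3.16%). MGMT, which repairs alkylated guanine, was undetected in HH (4.84, 4.85 and 4.80) and at 8.16 to 11.96 in the other lines (at least 3.85-fold lower than in HD-MAR-2, the nearest). CBR3, a carbonyl reductase that acts on anthracyclines, was at 9.54, 9.59 and 9.59 in HH against 6.80 to 7.83 (3.94-fold higher), and the efflux pump gene ABCC4 was 2.06-fold higher by 1 of 2 probes. No housekeeping gene of 12 and no cancer-testis antigen of 8 was called against each line.

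**Figure D4:**
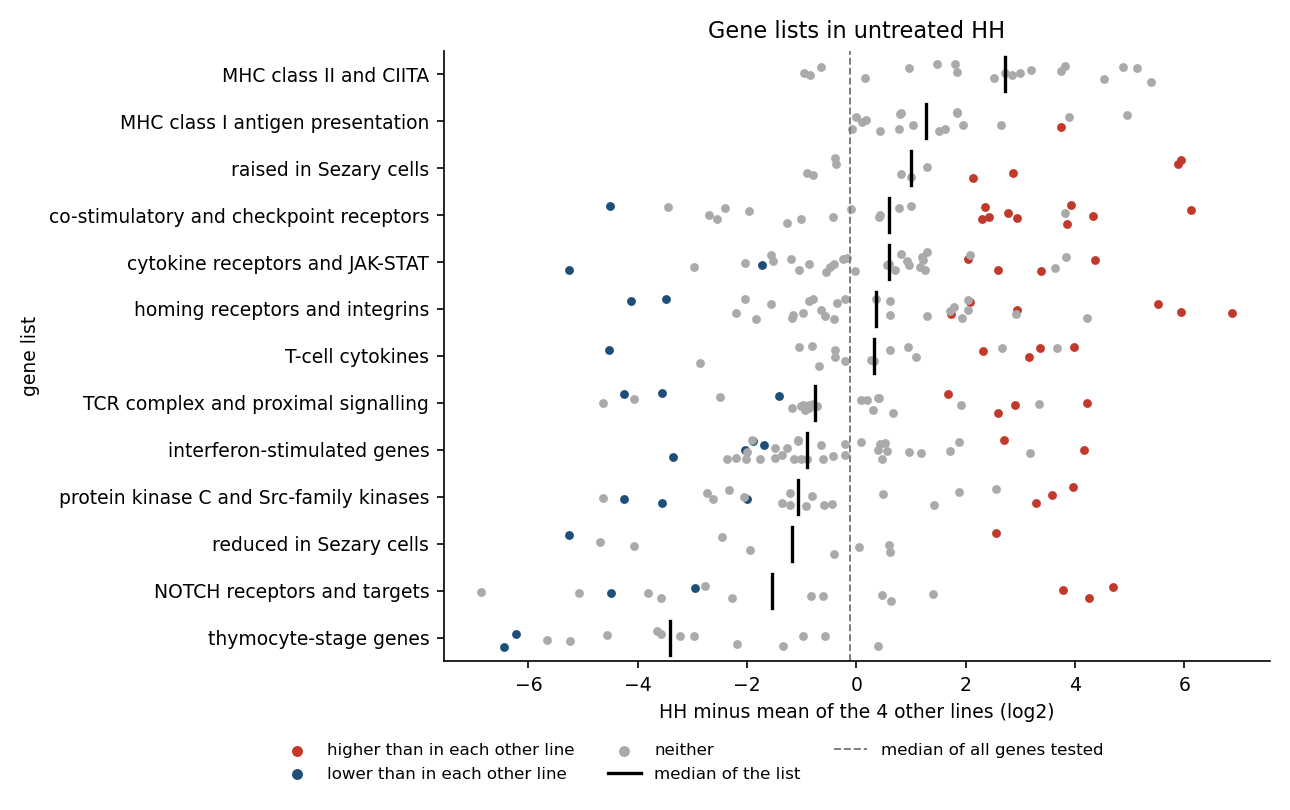
Difference in log2 signal between HH and the mean of the other 4 lines for the tested genes of selected lists, 1 point per gene. Red points are genes higher and blue points genes lower than in each line, and grey points are neither. A black bar marks the median of each list, and the dashed line the median of all genes tested (-0.12). Of the lists drawn, MHC class II genes have the highest median (2.73) and thymocyte-stage genes the lowest (-3.40).

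The positions of called genes were examined with genes placed in the order of the reference annotation (RefSeq, GRCh38.p14), a look taken after the values were seen. On chromosome 4, 8 neighbouring tested genes were all higher in HH than in each line: SLC39A8, NFKB1, MANBA, UBE2D3-AS1, CISD2, SLC9B1, SLC9B2 and BDH2. No longer stretch of higher genes was found in HH, and the longest stretch of lower genes held 3. In the other lines, by the same rule, the longest stretches of higher genes held 9 in JURKAT (GAGE genes, which are near-identical copies), 4 in KARPAS-299, 4 in SUP-T1 and 3 in HD-MAR-2.

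Of the 8 genes, SLC9B1 and SLC9B2 belong to the same gene family. SLC9B2, a sodium-proton exchanger, was at 12.22, 12.18 and 12.18 in HH against 5.52 to 8.72 in the other lines (11.7-fold). MANBA, lysosomal beta-mannosidase, was at 12.19, 12.16 and 12.16 against 8.28 to 9.65 (6.44-fold), and CISD2, an iron-sulphur protein, at 13.17, 13.23 and 13.20 against 9.02 to 10.68 (5.87-fold). NFKB1, the p105 and p50 subunit of NF-kB, was at 14.93, 14.92 and 15.02 in HH against 10.49 to 13.44 (3.03-fold above KARPAS-299, SE 0.12). SLC9B1 (5.81-fold), BDH2 (at least 3.97-fold), SLC39A8, a zinc transporter (3.72-fold), and UBE2D3-AS1 (3.25-fold) completed the stretch, and no HH array overlapped with another line in any of the genes given by array. The 8 tested genes before it, ADH5 to PPP3CA-DT, were not called. Further along, TBCK, PAPSS1 and FAM241A were higher, FAM241A at 12.94, 12.97 and 12.90 in HH against 5.54 to 9.03 (15.9-fold). In that run of 40 genes, 11 (27.5%) were higher and none lower, the most in any of 288 full runs of 40.

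The other long stretch on chromosome 4 was the UGT2 family, enzymes that join glucuronic acid to steroids and bile acids and are known from liver and gut. Of the 6 UGT2 genes that passed the detection filter, 4 did so through the HH arrays alone and therefore had to differ, so that the count of 6 called higher is no result. The values of each are given. UGT2B11 was at 11.96, 11.84 and 12.13 in HH against 5.05 to 6.89 (median 5.37) in the other lines, 37.6-fold above HD-MAR-2. UGT2B17 was at 11.54, 11.36 and 11.54 in HH against 4.75 to 7.78 (14.7-fold). Both were detected on all HD-MAR-2 arrays and on no array of the remaining lines. UGT2A3 (8.49 to 8.63 in HH, at least 4.52-fold), UGT2B15 (8.39 to 8.59, at least 4.34-fold), UGT2B10 (7.57 to 7.84, at least 2.49-fold) and UGT2B7 (6.78 to 7.33, at least 1.61-fold) were detected on HH arrays alone. The genes are close paralogs, and their probes may share transcripts.

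The 250 bases before the annotated start (RefSeq, GRCh38.p14) are shown for 3 of the UGT2 genes that were higher in HH. The 3 were chosen by hand, and their identity with the promoters of the other members was not measured. Capitals mark the longest run of bases common to the 3 promoters shown, whose positions and strands are chr4:69214749-69214998 (minus) for UGT2B11, chr4:68815744-68815993 (plus) for UGT2B10 and chr4:68670653-68670902 (minus) for UGT2B15.
UGT2B11: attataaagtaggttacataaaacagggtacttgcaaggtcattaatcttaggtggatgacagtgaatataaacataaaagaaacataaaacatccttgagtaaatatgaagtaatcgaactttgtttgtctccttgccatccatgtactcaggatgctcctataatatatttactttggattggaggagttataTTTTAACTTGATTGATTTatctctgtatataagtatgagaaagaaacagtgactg
UGT2B10: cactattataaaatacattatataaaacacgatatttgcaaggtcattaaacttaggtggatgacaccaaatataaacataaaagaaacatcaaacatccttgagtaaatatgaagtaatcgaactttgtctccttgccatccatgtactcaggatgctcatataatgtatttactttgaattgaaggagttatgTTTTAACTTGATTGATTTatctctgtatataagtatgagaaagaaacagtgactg
UGT2B15: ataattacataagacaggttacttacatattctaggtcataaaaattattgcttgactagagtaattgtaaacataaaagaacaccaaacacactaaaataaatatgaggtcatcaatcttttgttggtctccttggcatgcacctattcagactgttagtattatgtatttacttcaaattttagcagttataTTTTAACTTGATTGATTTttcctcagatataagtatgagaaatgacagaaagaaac
The promoters of UGT2B11 and UGT2B10 were identical at 90.2% of aligned bases, and each shared 70.7% with that of UGT2B15. The common run TTTTAACTTGATTGATTT, 18 bases long, begins 55 bases before the start in UGT2B11 and UGT2B10 and 56 in UGT2B15. On both strands it was found in 3 of 35116 promoters of the same length (0.00854%), these 3, by whose common sequence it was defined. The table held 5 of the 6 UGT2 genes, and the promoters of the other two, UGT2A3 and UGT2B7, which were also higher in HH, did not hold the run. The run describes the sequences, and no binding was measured.

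Chromosome 15 ran the other way. Of its 380 tested genes, 49 (12.9%) were lower and 4 (1.05%) higher in HH than in each line, beside 3.16% and 4.82% of all genes. The median difference was -0.88, against -0.12 over all genes, and 81.6% of its genes were below the mean of the other lines, beside 55.8% of all genes. HH lay below each line, with medians of -0.82 to JURKAT, -0.76 to KARPAS-299, -0.72 to HD-MAR-2 and -0.94 to SUP-T1. Relative to all genes the shift was -0.76, and -0.73 when arrays were scaled to their medians. It was the largest of 115 such values, 23 chromosomes in 5 lines, the next being 0.69 for chromosome 20 in HD-MAR-2. All 10 runs of neighbouring genes along chromosome 15 had medians between -1.20 and -0.53, while 14 of 279 full runs of 40 genes elsewhere were at or under the highest of these.

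HACD3 and TCF12, given above, lie on chromosome 15. AEN, a nuclease induced by p53, was at 7.66, 7.999 and 8.19 in HH against 10.40 to 11.22 in the other lines (5.53-fold lower), and RCN2 at 9.88, 10.11 and 10.30 against 12.14 to 12.97 (4.93-fold lower). CSK lies there too, in a stretch of 3 neighbouring lower genes. Among the 4 exceptions, LRRC49 was at 10.95, 10.91 and 10.78 in HH against 4.67 to 8.43 (6.60-fold higher), and TRIM69 was at least 4.07-fold higher.

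**Figure D5:**
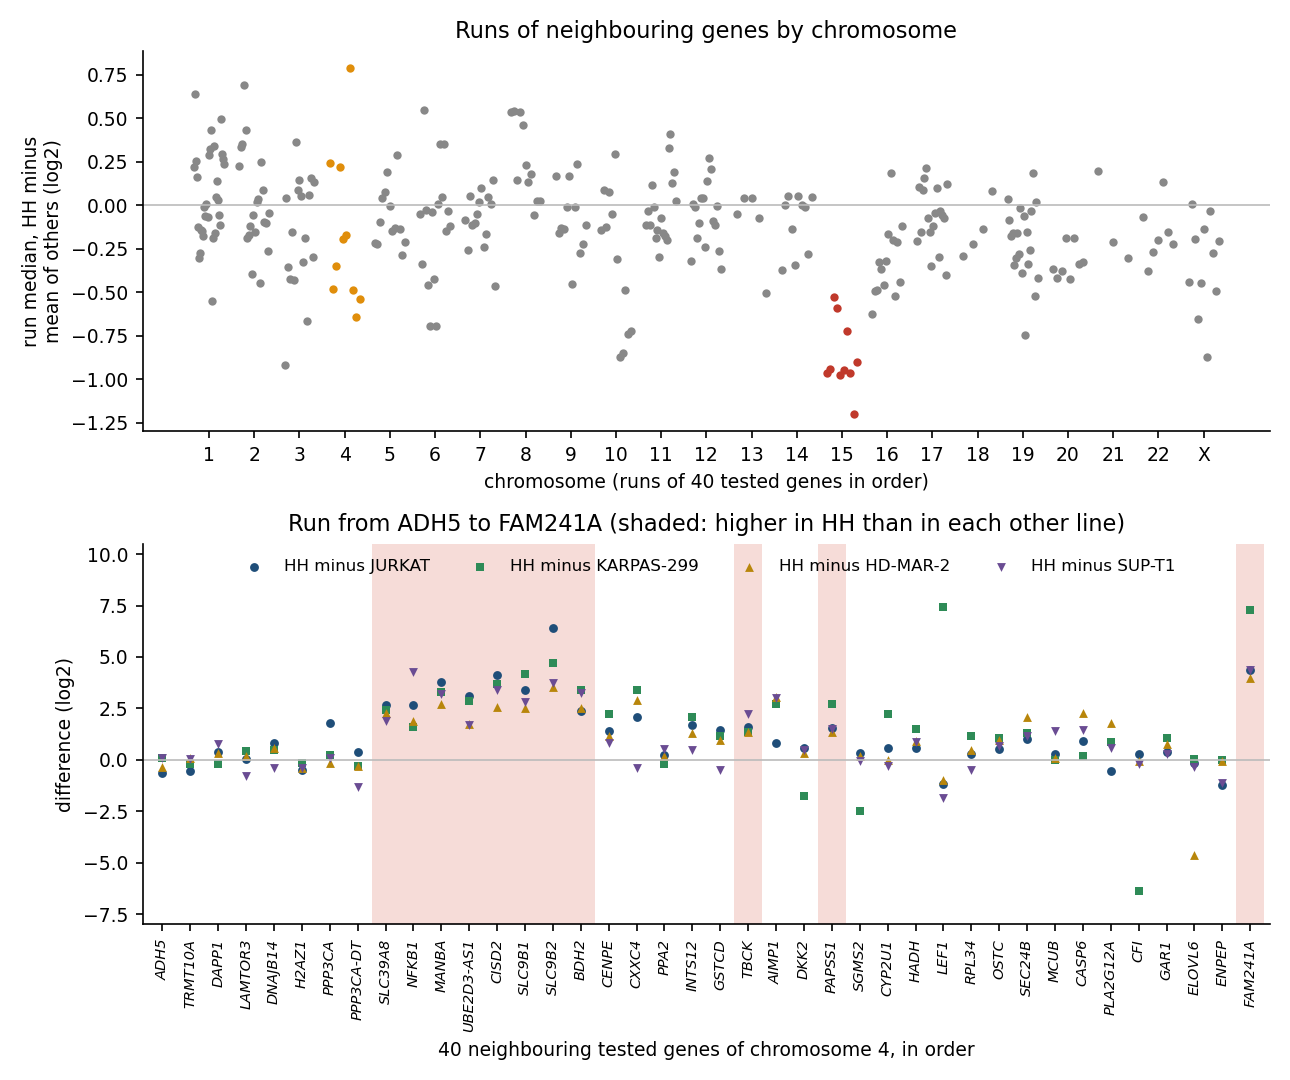
Upper panel, median difference in log2 signal between HH and the mean of the other 4 lines in runs of 40 neighbouring genes (runs under 20 genes not drawn), by chromosome, with chromosome 15 in red and chromosome 4 in orange. Lower panel, difference between HH and each line for the 40 genes from ADH5 to FAM241A in order, with genes higher than in each line shaded, 8 of them side by side.

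Host genes of microRNAs, looked at after the values were seen, included 2 that are known NF-kB targets. MIR155HG, which gives rise to miR-155, was at 13.14, 13.62 and 13.45 in HH against 4.87 to 9.79 (median 7.70) in the other lines, 13.0-fold above HD-MAR-2. MIR3142HG, whose transcript also holds miR-146a, was at 8.36, 8.52 and 8.31 in HH and was detected nowhere else (4.72 to 4.99), at least 3.99-fold higher. The mature microRNAs, whose seeds (bases 2 to 8) are in capitals and differ, were not measured. Their sequences are from RefSeq (GRCh38.p14), at chr21:25573983-25574006 and chr5:160485372-160485393, both on the plus strand.
hsa-miR-155-5p: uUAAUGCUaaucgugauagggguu
hsa-miR-146a-5p: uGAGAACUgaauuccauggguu

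The CHOEP-treated arrays, which the comparison above did not use, hold the same lines on the same chips. By the same rule fitted to them alone, 422 of the 576 higher genes (73.3%) and 268 of the 378 lower genes (70.9%) were called again. HH lay on the same side of each line for 547 of the 576 and 373 of the 378. Without HD-MAR-2 the counts called in both were 494 and 361. All 30 leading genes were called again, as were the 8 neighbours on chromosome 4 and both microRNA host genes. Among the named genes not called again were CDKN1A, CXCL10, PIM3, TNFAIP3, IL10RA, PMAIP1 and MYB, and TNFRSF8 was not detected on enough treated arrays to be tested.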

How the data were processed

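HumanHT-12 v4 BeadChip arrays of 5 untreated T-cell lines were analysed, 3 replicate arrays per line, with groups taken from the sample labels. The authors deposited signal intensities read with BeadStudio (version 3 per the submitters' processing notes), neither normalised nor log-transformed, and BeadStudio's detection p-values beside them. The deposited log2 values, made by the authors with robust spline normalisation in lumi, served as an alternative. Of 48107 probes, 784 have no values. Of the others, 30113 have 1 gene symbol in the platform annotation, 8 several and 17202 none, and 30074 matched RefSeq (GRCh38.p14).

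Intensities were background-corrected, quantile normalised and log2-transformed with neqc (limma 3.58.1, R 4.3.3; offset 16). Probes detected (p under 0.01) on at least 3 of 15 arrays were kept, 21201 in all, and each gene took its probe with the highest mean, which gave 11955 genes. A linear model with 1 mean per line (10 residual degrees of freedom) was fitted, and p was adjusted over all kept probes by the Benjamini-Hochberg method. The number of arrays limits the precision, with a median standard error of 0.15 (log2) for a difference between 2 lines. The pipeline was tested on simulated data. Named genes are the 15 higher and 15 lower with the largest difference to the nearest line (provisional symbols, pseudogenes and sex-linked marker genes passed over), up to 6 called genes per list, T-cell identity genes and Sezary genes. Members and the 28 lists were chosen with earlier results of these data known. Alternatives changed the normalisation, filters, thresholds, probes, lines and arrays.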

Additional observations from a re-analysis of the deposited data

Results flagged for a closer look

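The difference between HH and the mean of the other lines changed by more than 2-fold between CHOEP-treated and untreated arrays for 10 named genes (interaction in a limma fit of all 30 arrays, adjusted p at most 0.00316), where each line had received its own dose. For PMAIP1 the difference was 0.28 on treated arrays and -2.38 on untreated ones, a change of 2.66 (log2, SE 0.16). CD160 was further above the other lines after treatment (5.86 against 3.79, a change of 2.07), as was SELPLG, which encodes a selectin ligand (2.86 against 1.70, a change of 1.15). SOCS1, an inhibitor of cytokine signalling, was at 0.64 against -0.41, a change of 1.05. CCND3 and PFKFB3 stayed lower in HH, at -3.46 against -4.57 (a change of 1.12) and -4.83 against -5.95 (a change of 1.11). CDKN1A was less far above the other lines after treatment (1.20 against 3.20, a change of -2.004), as were CXCL10 (0.73 against 2.28, a change of -1.56), PIM3 (0.75 against 2.01, a change of -1.26) and NOL4 (5.55 against 6.67, a change of -1.12).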

How the results depend on the processing

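Counts of higher and lower genes against each line were 236 and 131 at a 4-fold threshold and 1274 and 1119 with no fold threshold; against the mean of the lines they were 640 and 618, and 3729 and 5058. The authors' log2 values gave 245 lower genes against each line and 1296 against the mean. Without KARPAS-299, 947 genes were higher and 826 lower than in each remaining line. With lines as replicates, 0 genes were higher and 0 lower than the mean. With 1 array left out, the counts were 444 to 582 higher and 373 to 389 lower than each line, 1418 to 1554 higher and 1902 to 2030 lower than the mean, and 314 to 427 higher and 264 to 273 lower on untreated and treated arrays alike. The lowest counts of higher genes came without an HH array, when genes detected on HH arrays alone no longer pass the filter of 3 arrays. Scaling arrays to their medians moved the median of all genes to -0.38, against -0.12, and turned the sign of the list medians of cell cycle inhibitors, BCL2-family genes and myeloid markers. Of 96 called named genes, each under up to 33 settings, 3063 of 3156 values kept the call, 93 lost it and 0 reversed. The 30 leading genes kept their calls in each setting that could be run, except RBMS1 and PFKFB3 when every probe had to pass. Replicate numbers did not pair the arrays (deviations of same-numbered arrays correlated between -0.15 and 0.58, over 0.1 in 0 of 12 pairs with HH and in 5 of 30 in all), and with the replicate number as a block the counts were 576, 378, 1548 and 2009.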

Other observations

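Some gene families outside the lists were looked at after the values were seen, and are described with no test of a family. Of 21 tested subunits and regulators of NF-kB, 8 were higher in HH than in each line (38.1%, beside 4.82% of all genes), 1 was lower (the kinase gene IKBKE), and the median difference to the mean of the other lines was 1.69. TRAF1, an adaptor of TNF receptors, was at 12.66, 12.37 and 12.49 in HH against 4.95 to 8.68 in the other lines (18.4-fold above KARPAS-299). NFKB2, the p100 and p52 subunit, was at 10.38, 10.66 and 10.38 in HH against 5.03 to 8.50 (4.11-fold), and NFKBIE, an inhibitor, was 2.95-fold higher. CYLD, TNIP1 and TNIP2, which restrain the pathway, were called higher too, beside NFKB1 and TNFAIP3.

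Of 154 small nucleolar RNAs, 19 were higher in HH than in each line (12.3%, beside 4.82% of all genes). None was lower, where 3.16% of all genes were, and the median was 0.31. Among the 19, SNORA70B, SNORA74B and SNORD71 were undetected in the nearest line, so that their differences are bounds (at least 1.48-fold, 1.37-fold and 3.76-fold). Of 51 histone genes, 10 were higher (19.6%, beside 4.82% of all genes), most of them in the H2A, H2B and H3 clusters. Only 1 was lower (H1-10), where 3.16% of all genes were, and the median was 0.51. Members of both families resemble each other in sequence, and their probes may share transcripts. On chromosome 8, 9.32% of 440 genes were higher in HH than in each line, beside 4.82% of all genes. The median there was 0.26, against -0.12 over all genes, but the median difference to HD-MAR-2 was -0.03.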
